A study of Mus musculus with 2 samples.

Results

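The 9 microglia marker genes examined here were Csf1r, Cx3cr1, Irf8, Sall1, Aif1, C1qa, Spi1, Tmem119 and P2ry12, all chosen by name from the 21853 protein-coding genes of the GENCODE M21 annotation. Chromatin accessibility around them was read from DNase-seq of hippocampus tissue, an assay that sequences the ends left by DNase I, an enzyme that reaches DNA best between nucleosomes. The labels call the tissue a layer of the hippocampus without naming the layer. The series held 1 group with 2 biological replicates from male B6CASTF1/J mice aged 2 months, the F1 hybrids of B6 and CAST parents, with no treatment and no other tissue. The replicates were separate biosamples with the same donor entry, and no label said whether they came from different animals, so the spread between them may be technical in part.

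Microglia are the resident macrophages of the brain. They arise from yolk sac progenitors, depend on signalling through the receptor CSF1R, and take on their adult state under the transcription factors PU.1 (the product of Spi1), IRF8 and SALL1 together with TGF-beta from their surroundings. They make up a small share of the cells of the hippocampus, most of which are neurons, oligodendrocytes and astrocytes. A genomic stretch that is open in microglia alone is therefore diluted in DNA from the whole tissue. In such bulk material, few cells with an open site and weak opening in each cell cannot be told apart, and the lack of a peak means only that none was listed.

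The authors deposited for each replicate a longer and a shorter list of peaks, the height of each peak as a signal value, false discovery rates (FDR) along the genome and footprints, which are short stretches protected from cutting inside open chromatin. A promoter was the interval within 500 bp of any protein-coding start of a gene. A site was called shared where peaks of both replicates overlapped by at least 1 bp. Replicate 1 had 132685 peaks in the longer list and replicate 2 had 59880, so a site listed in replicate 1 alone was common in the data as a whole. Of all replicate 1 peaks, 38.0% overlapped a replicate 2 peak, while 81.8% of all replicate 2 peaks overlapped a replicate 1 peak.

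Promoters of the microglia marker genes were mostly without a shared peak. A shared promoter peak was present at 2 of the 9 genes (Irf8 and Sall1), against 57.1% of all protein-coding genes. Read by itself, replicate 1 had a promoter peak at 4 of 9 (Csf1r and Cx3cr1 in addition), against 63.4% of all genes, and replicate 2 at 2 of 9, against 58.5%. In the shorter, stricter lists the shared count was again 2 of 9, against 51.2%. Aif1, C1qa, Spi1, Tmem119 and P2ry12, 5 of the 9, had no promoter peak in either replicate, against 7847 of all 21853 genes. With 1 group of samples and genes chosen by name, these shares are descriptions and no test was made of them.

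**Figure D1:**
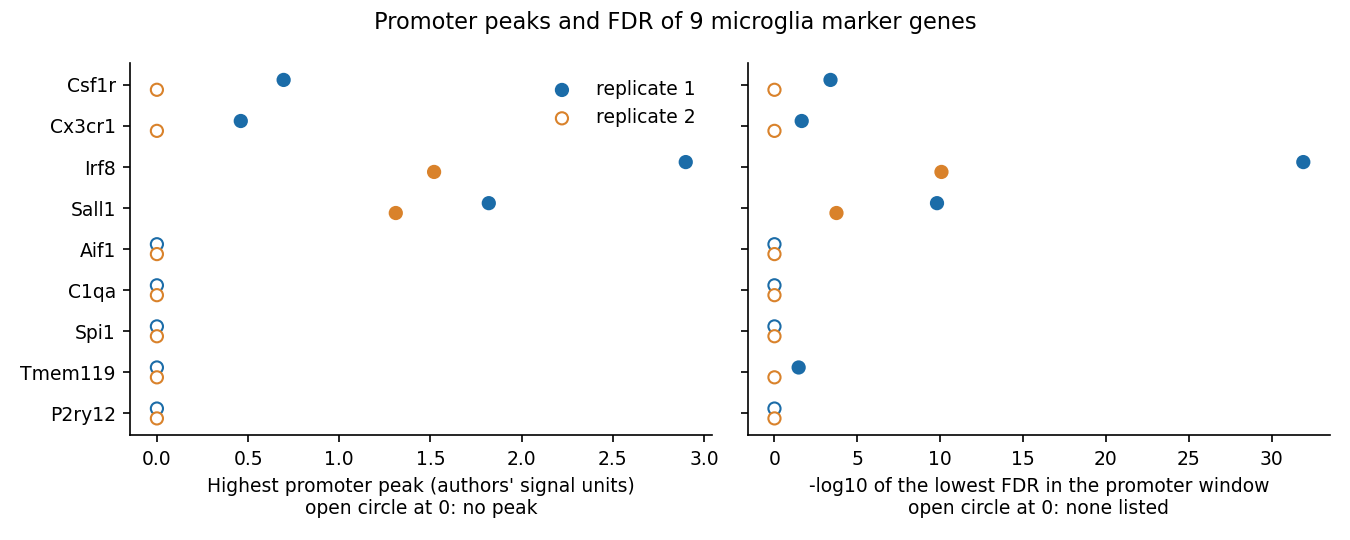
Left, height of the highest promoter peak of each microglia marker gene in replicate 1 and replicate 2, in the authors' signal units; right, minus log10 of the lowest FDR listed in the promoter window. Filled circles are listed values and open circles at 0 mark genes with no peak or no listed FDR; Irf8 and Sall1 are filled in both replicates, and 5 genes have no peak in either.

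Among the 3 transcription factors, Irf8, which encodes an interferon regulatory factor that partners PU.1 on DNA in myeloid cells, had the highest promoter peak of the group. Its height was 2.9 in replicate 1 and 1.52 in replicate 2, and the lowest FDR in the window was 1.21e-32 in replicate 1 and 8.34e-11 in replicate 2. The peak was centred at -68 bp from the main start and was present in both shorter lists. Both replicates placed 2 footprints in the window. Of replicate 1 peaks within 10% of the Irf8 height, 91.1% were found in replicate 2, so a peak this high was usually shared. Irf8 carried a weaker peak of 0.39 in replicate 1 at a later start and one of 0.775 in replicate 2 just upstream of the main one, and neither was matched in the other replicate.

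Sall1 encodes a zinc finger repressor that is a hallmark of microglia among macrophages and is also used in developing kidney and neural tissue. Its promoter peak reached 1.82 in replicate 1 and 1.31 in replicate 2, lower than that of Irf8 in both. The peak lay inside the gene, centred 572 bp from the single GENCODE start, and spanned a further start that RefSeq places at position 89043512 of chromosome 8. Over the whole shared site the lowest FDR was 6.2e-14 in replicate 1 and 1.04e-05 in replicate 2. Within the promoter window it was 1.55e-10 and 0.000181. A second shared site in the first intron, with heights of 1.73 and 0.957 in replicates 1 and 2, ended 2 bp from another RefSeq start. At the GENCODE first exon itself a peak of 0.635 was listed in replicate 2 and none in replicate 1. The open chromatin of Sall1 thus sat at its inner starts rather than at its outermost one in replicate 1, and at both in replicate 2.

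The promoter sequences under these 2 shared peaks are shown because they are the promoters of the group that both replicates listed as open. Both are given 5′ to 3′ on the strand of the gene, from the RefSeq copy of assembly GRCm38.p6, and end at the base before a start: Irf8 at chr8:120736181-120736357 on the plus strand and Sall1 at chr8:89043513-89043700 on the minus strand. Capitals mark the SP letters GGGCGGGG or their reverse complement.
Irf8 promoter: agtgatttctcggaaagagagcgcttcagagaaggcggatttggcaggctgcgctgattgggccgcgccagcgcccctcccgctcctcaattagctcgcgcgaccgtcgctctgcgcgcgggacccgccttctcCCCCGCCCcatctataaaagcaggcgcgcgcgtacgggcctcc
Sall1 promoter: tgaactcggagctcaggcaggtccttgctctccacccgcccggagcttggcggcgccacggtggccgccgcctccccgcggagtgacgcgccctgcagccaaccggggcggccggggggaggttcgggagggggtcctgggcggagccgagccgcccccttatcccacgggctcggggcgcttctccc
The Irf8 stretch had a GC content of 66.7% with 23 CpG dinucleotides, and the Sall1 stretch 76.6% with 22. The SP match of Irf8 lay under a footprint in replicate 2 and under none in replicate 1. The letters GGGCGGGG occurred on either strand in 1 of the 9 member promoters (Irf8), against 33.6% of all promoters of the same length, 500 bp each side of the outermost start.

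Spi1 encodes PU.1, the ETS factor on which the whole macrophage lineage depends. No peak, no footprint and no FDR interval was listed in its promoter windows in either replicate. Its open chromatin was inside the gene, at a pair of sites described with the other sites below.

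The 3 receptors had no shared promoter peak. Csf1r, the receptor for CSF1 and IL-34 that microglia need to survive, had a promoter peak of 0.695 in replicate 1 with a lowest FDR of 0.000415 and none in replicate 2. Cx3cr1, the receptor for the neuronal chemokine fractalkine, had a peak of 0.46 in replicate 1 with a lowest FDR of 0.0227, and none in replicate 2. Neither peak was in the shorter list of replicate 1, and each held 1 footprint. These were modest peaks for the library: 52.2% of replicate 1 peaks were lower than that of Csf1r and 29.3% were lower than that of Cx3cr1. Of replicate 1 peaks within 10% of their heights, 28.6% and 16.6% were found in replicate 2, so absence there is common at these heights. The Cx3cr1 peak also lay within 500 bp of the start of the antisense transcript gene Gm33858, and the assay gives no strand. P2ry12, a purinergic receptor by which resting microglia sense nucleotides from injured cells, had no peak, footprint or listed FDR in any promoter window.

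The remaining 3 genes had no promoter peak in either replicate. Aif1 encodes the calcium-binding protein IBA1 that stains microglia, C1qa a chain of the complement protein C1q that microglia secrete, and Tmem119 a transmembrane protein used to tell microglia from blood macrophages. At Tmem119 a stretch of 7 bp in replicate 1 reached an FDR of 0.0347 without being listed as a peak, and replicate 2 had nothing listed. Footprints fell in promoter windows of 3 members in replicate 1 (Csf1r, Cx3cr1 and Irf8), against 61.4% of all genes, and of 2 in replicate 2 (Irf8 and Sall1), against 55.9%. Intervals with a listed FDR touched the promoter windows of 5 members in replicate 1, against 64.4%, and of 2 in replicate 2, against 59.7%.

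The members with a shared promoter peak were the members with many CpG dinucleotides. Mammalian promoters differ in how far CpG, which methylation depletes over evolution, is kept: the ratio of observed to expected CpG near the outermost start was 0.74 at Irf8 and 0.63 at Sall1, and between 0.16 (Csf1r) and 0.34 (P2ry12) at the other 7, against a median of 0.56 over all genes. The ratio was taken within 500 bp of that start. At Sall1 most of the shared peak, centred 572 bp away, lay outside this window. Across all protein-coding genes split into 5 groups of equal size by this ratio, a shared promoter peak was found at 6.41%, 23.1%, 70.7%, 90.1% and 95.3%, from the lowest ratio to the highest. Csf1r and Spi1 fell in the lowest group, Cx3cr1, Aif1, C1qa, Tmem119 and P2ry12 in the next, Sall1 in the middle one and Irf8 in the group after it. None of the 7 members in the lower 2 groups had a shared peak, and both members above them did. The low count of open promoters in this group therefore stood beside a low CpG ratio, and its part in the result was not tested. GC content alone separated the members less: Tmem119 with 58.4% and no peak lay above Sall1 with 57.9%.

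**Figure D2:**
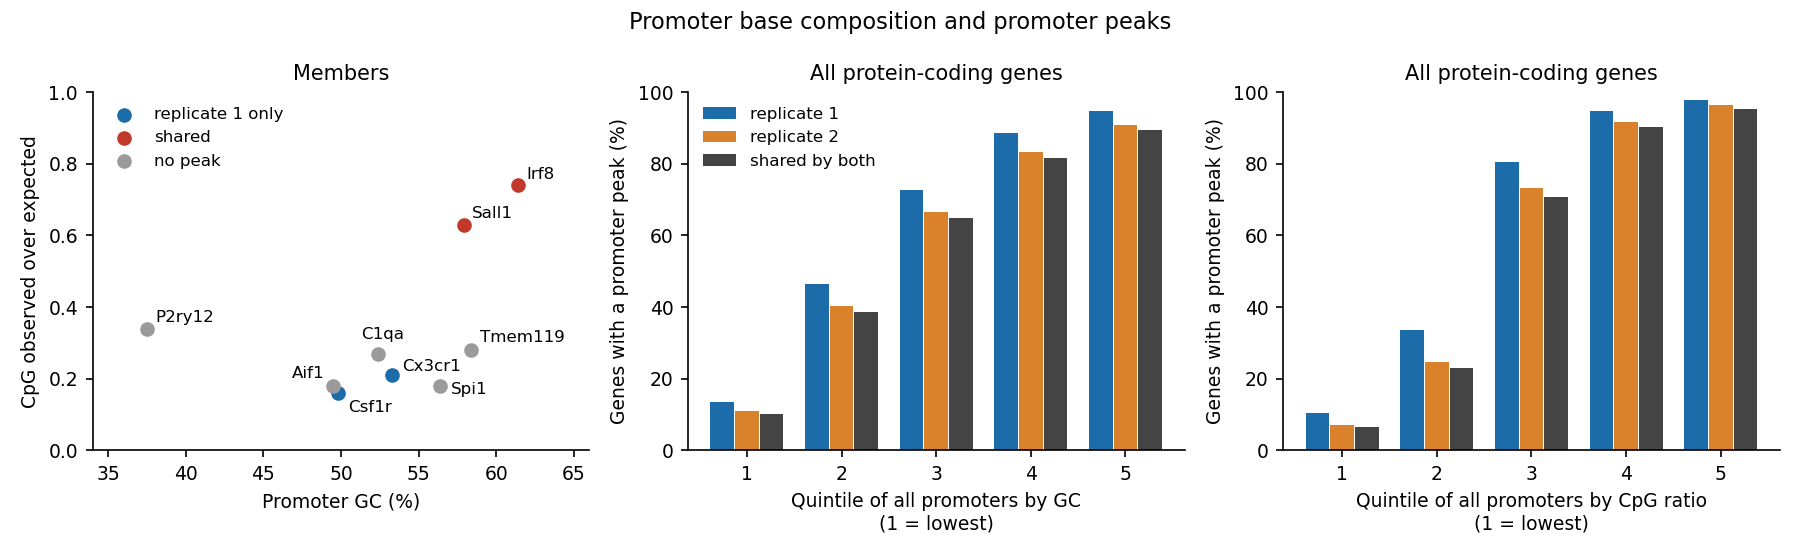
Left, promoter GC content and CpG observed over expected of the 9 microglia marker genes, coloured by promoter peak (shared, replicate 1 only, or none); middle and right, percent of all protein-coding genes with a promoter peak in each quintile by GC content and by CpG ratio, for replicate 1, replicate 2 and both. Irf8 and Sall1 stand alone with CpG ratios of 0.74 and 0.63, and the shared share over all genes runs between 6.41% and 95.3% across the CpG quintiles.

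Other lists of genes chosen for microglia were read in the same way. Of 18 other microglia genes, 2 had a shared promoter peak (11.1%), against 57.1% of all genes, the highest at Olfml3, with heights of 4.47 in replicate 1 and 2.19 in replicate 2. Cd68 had a peak in replicate 1 alone (1.7). Neither replicate listed one at 15 of the 18, against 7847 of all 21853 genes. Among these 15 were C1qb and C1qc next to C1qa, P2ry13 next to P2ry12, and Selplg next to Tmem119. Of 10 other transcription factors active in microglia, 7 had a shared peak (70%), against 57.1% of all genes, with the highest by mean height at Mef2a (6.05 and 4.97), Cebpa (5.62 and 3.49) and Smad3 (3.03 and 2.15). Fli1 and Runx1 had a peak in replicate 2 alone, of 0.527 and 0.538, and Irf5 in neither. Several of these factors, Mef2a, Mef2c and Smad3 among them, are also used by other brain cells, so their peaks cannot be assigned to microglia.

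Partners of the member receptors were read in the same way. Among 6 ligands and receptors of the CSF1, fractalkine and TGF-beta pathways, 3 had a shared promoter peak (50%), against 57.1% of all genes. Cx3cl1, the fractalkine that neurons make, had 3.32 in replicate 1 and 3.09 in replicate 2, while its receptor gene Cx3cr1 had 0.46 and no peak. Csf1 had 1.09 and 1.75, while its receptor gene Csf1r had 0.695 and no peak. Tgfbr1 had 5.48 and 2.87, and Tgfbr2 had peaks of 0.872 and 0.452 that did not overlap. Il34 and Tgfb1 had none.

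Genes of other cell types were read beside them. A shared promoter peak was found at 8 of 9 general neuron markers, 8 of 9 markers of hippocampal neurons, 5 of 9 astrocyte markers (55.6%) and 3 of 9 oligodendrocyte markers, against 57.1% of all genes. Among the markers of hippocampal neurons, Prox1 was listed in replicate 1 only (1.7). The promoter CpG ratios of these lists were not compared. All 8 markers of border macrophages and all 10 of blood leukocytes were without a promoter peak in both replicates, against 7847 of all 21853 genes. Replicate 1 listed promoter peaks at 7 of 9 oligodendrocyte and 8 of 9 astrocyte markers, beside 63.4% of all genes. In replicate 2 these were 3 and 5, beside 58.5% of all genes.

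**Figure D3:**
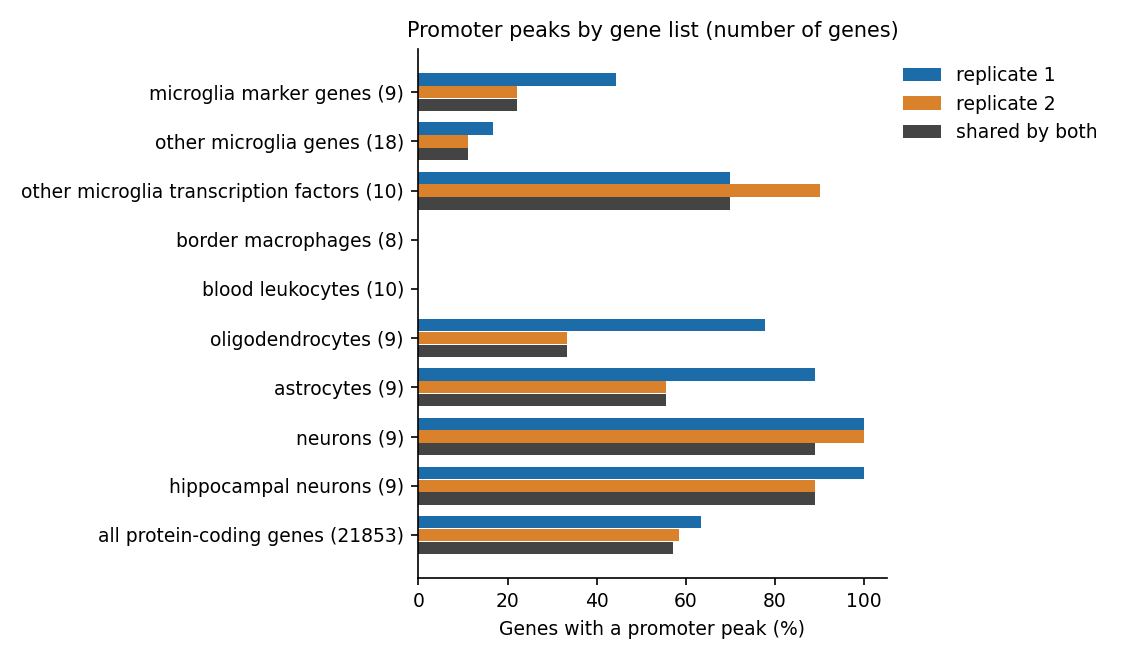
Percent of genes with a promoter peak in replicate 1, in replicate 2 and shared by both, for the 9 microglia marker genes, lists of other cell types and all 21853 protein-coding genes (number of genes in brackets). The microglia marker genes stand at 22.2% shared, the general neuron markers at 88.9%, and the macrophage and leukocyte lists have no bar because no gene had a peak.

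Beyond their promoters, the gene bodies with 50 kb on each side held shared sites at a density near that of other genes. The 9 domains held 49 shared sites, and their median density was 3.32 per 100 kb, with quartiles of 2.73 and 4.47, against 3.3 over all genes, with quartiles of 1.41 and 5.66. By gene there were 12 at Cx3cr1, 8 each at Aif1 and Tmem119, 5 at Spi1, 4 each at Csf1r, Irf8 and P2ry12, 3 at Sall1 and 1 at C1qa. Of the 49, 17 lay at the promoter of another gene, 10 inside another gene and 10 were counted as intergenic. The very long read-through gene Gm20388, which M21 lists as protein-coding, was passed over in these classes and covers 3 of the 10, all in the Irf8 domain. The 12 sites in a member's own gene or promoter were 2 promoter sites, 9 intronic sites and 1 exonic site. Of the 30 neighbouring protein-coding genes that start in the domains, 15 had a shared promoter peak (50%), against 57.1% of all genes, beside 2 of the 9 members.

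**Figure D4:**
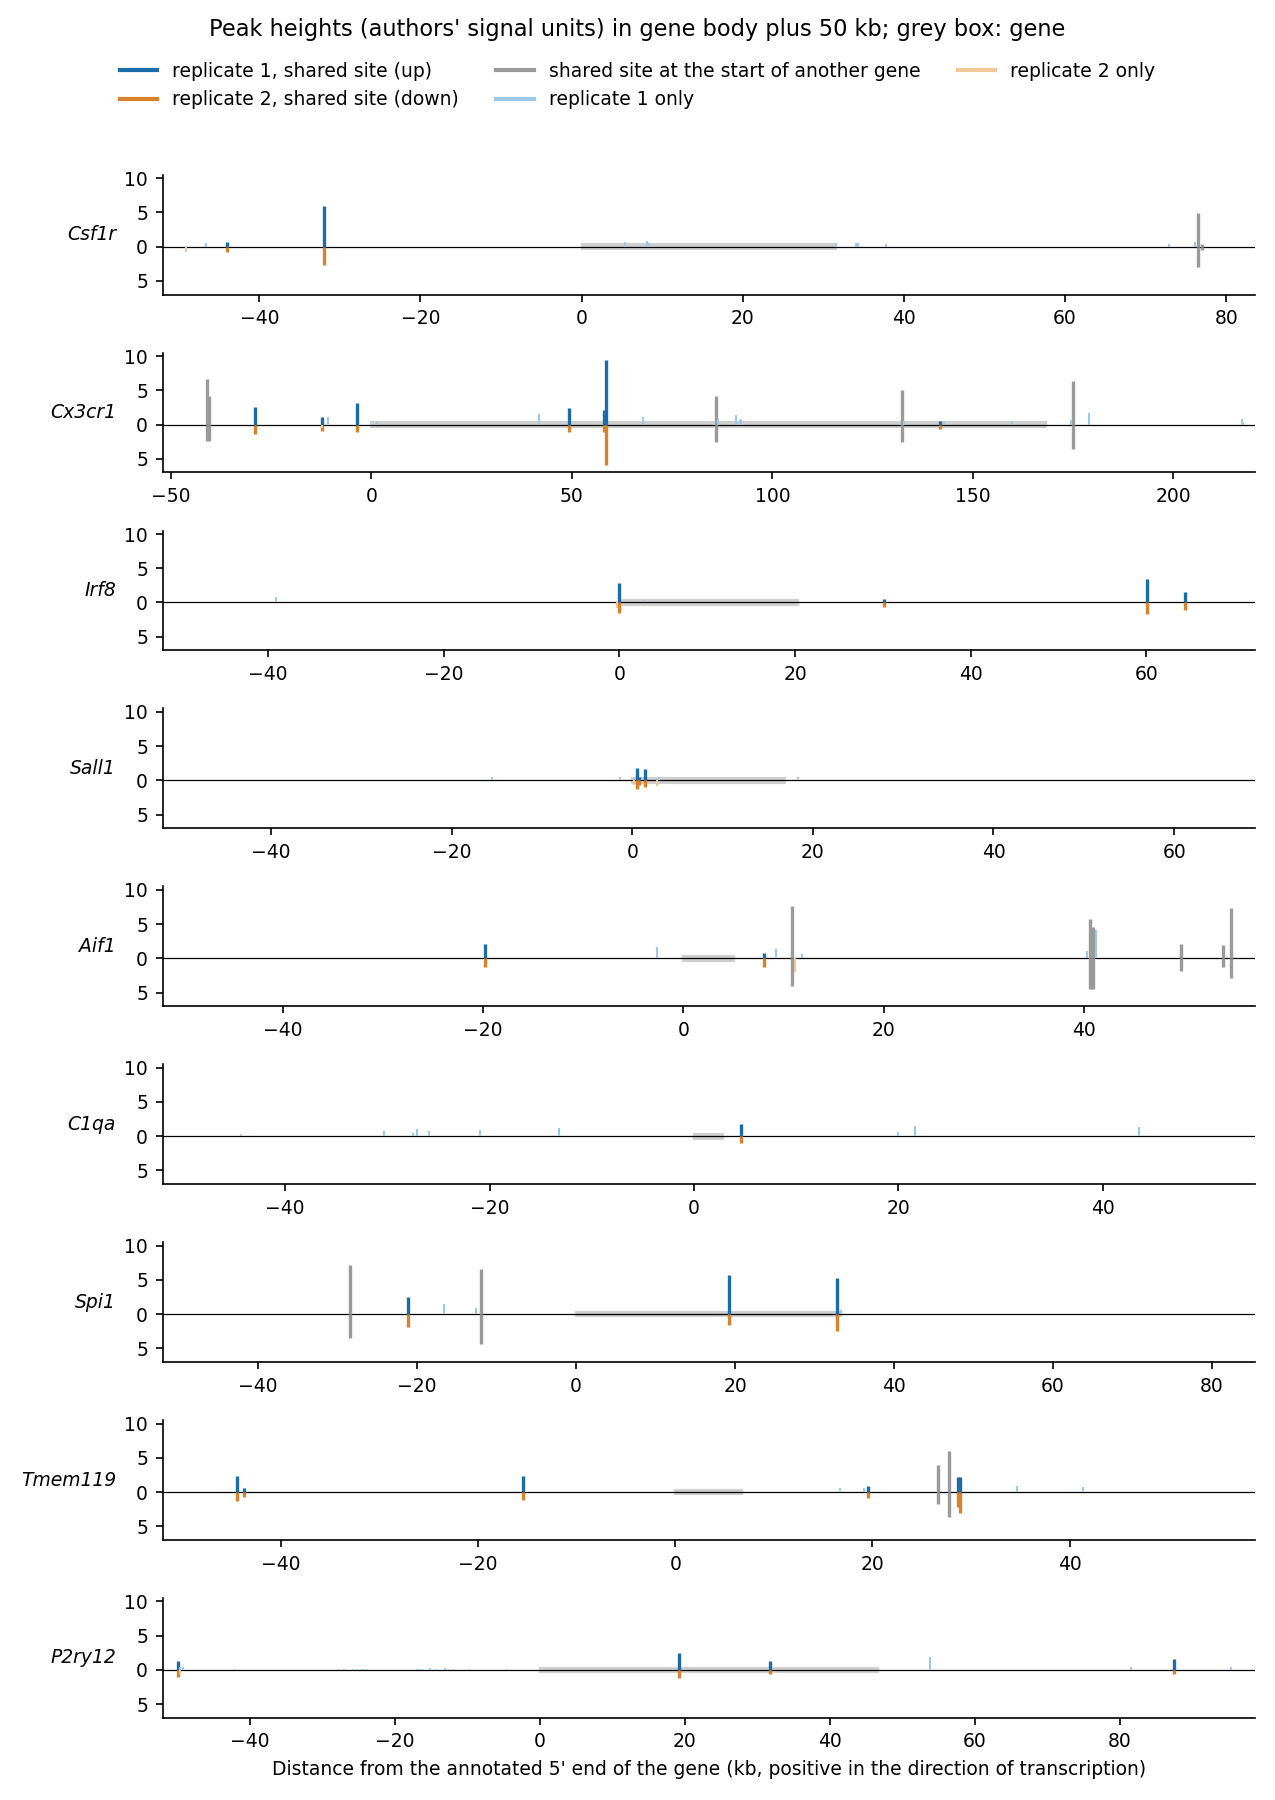
Peak heights in the gene body plus 50 kb of each microglia marker gene, by distance in kb from the annotated 5′ end of the gene; bars up are replicate 1 and bars down replicate 2, in the authors' signal units, and the grey box is the gene. Most tall bars are grey, at the starts of neighbouring genes, and many short bars, as in the C1qa panel with 10, are in replicate 1 only; the low peaks upstream of P2ry12 barely leave the axis.

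Spi1 had the strongest open chromatin inside its own gene among the members other than Cx3cr1. The site in intron 2, chr2:91101501-91101680, had a height of 5.65 in replicate 1 and 1.62 in replicate 2, a log2 ratio of replicate 2 to replicate 1 of -1.80, the most negative of the 49 sites. The other lay in the coding part of exon 5, chr2:91115161-91115320, with 5.27 and 2.46. Both were in both shorter lists, at FDR values of 5.65e-42 and 1.12e-38 in replicate 1 and of 1.83e-06 and 1.35e-10 in replicate 2. These heights exceeded the promoter peak of Irf8 in both replicates, although the Spi1 promoter had none. Outside the gene, another site within Psmc3, 21.1 kb upstream of the nearest Spi1 start, had 2.47 and 1.87.

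Csf1r had no shared site in its own gene. By mean height its strongest, chr18:61068501-61068680, lay 37 kb upstream of the nearest start inside Pdgfrb, a receptor gene of pericytes and fibroblasts, with 6.01 in replicate 1 and 2.71 in replicate 2, and a weak one in the same gene had 0.663 and 0.828. The site at the start of Hmgxb3 had 4.96 and 3.04, and so was the higher of these in replicate 2. In intron 2 of Csf1r, where the macrophage enhancer known as FIRE lies in the mouse, replicate 1 had peaks of 0.781 and 0.562, the first with 2 footprints and in the shorter list. Replicate 2 listed none there. Whether these peaks cover FIRE itself was not tested.

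Cx3cr1 is annotated in M21 with a long transcript that runs across Xirp1, Csrnp1, Ttc21a and Gorasp1, so its domain was the longest, 268.3 kb. In an intron of that transcript lay the strongest site of the group, chr9:120011141-120011360, with heights of 9.48 and 5.86 in replicates 1 and 2, and with 7 footprints in replicate 1 and 6 in replicate 2. This stretch, 57 kb downstream of the nearest Cx3cr1 start and with no protein-coding start within 500 bp, had a GC content of 74.1% and 31 CpG. A neighbouring stretch had 2.18 and 1.02, a site over Xirp1 2.47 and 1.16, and a site over Gorasp1 0.529 and 0.667. Closer to the start used by the shorter transcripts, a site 3.48 kb upstream, chr9:120073261-120073460, had 3.13 and 1.12 and was in both shorter lists, higher in each replicate than the promoter peak of 0.46 and none. Sites 12.3 kb and 29 kb upstream had 1.12 and 0.947, and 2.62 and 1.33.

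Irf8 had 3 shared sites beyond its promoter, all downstream and all within the M21 read-through gene Gm20388. The strongest, chr8:120796381-120796540, 57.8 kb downstream of the nearest Irf8 start, had 3.4 in replicate 1 and 1.73 in replicate 2 and so stood above the promoter peak of the gene in both. A site 62.1 kb downstream had 1.52 and 1.17, and one 27.9 kb downstream 0.551 and 0.613. No other protein-coding gene starts in this domain, nor in that of Sall1. Sall1 had no shared site outside its gene, and a small intronic one had 0.492 and 0.678.

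P2ry12, whose promoter was without a peak, had 2 shared sites in its first intron. The site at chr3:59243527-59243668 had 2.47 in replicate 1 and 1.12 in replicate 2, and that at chr3:59231041-59231124 had 1.35 and 0.581. P2ry12 lies inside the larger gene Med12l, so these sites are intronic to both genes. Within Med12l beyond P2ry12, sites with 1.6 and 0.581, and with 1.26 and 0.968, lay 44.8 kb and 49.9 kb away.

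C1qa had a single shared site, chr4:136894081-136894240, 4.64 kb from its start and beyond its 3′ end, with 1.71 in replicate 1 and 1.0 in replicate 2. Its domain held 10 further peaks in replicate 1, with heights between 0.305 and 1.49, 7 of them in the shorter list and 8 with a footprint, and no further peak in replicate 2. No promoter peak was listed at the neighbours C1qb and C1qc, which encode the other chains of C1q.

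Tmem119 and Aif1 lie in gene-dense stretches. At Tmem119 the intergenic site 15.4 kb upstream, chr5:113815861-113816020, had 2.35 and 1.17, and a site within Coro1c, chr5:113844841-113845020, had 2.33 and 1.29. A pair of adjoining sites within Sart3 had 2.2 and 3.07, and 2.2 and 2.17. The Aif1 domain had 6 of its 8 shared sites at starts of other genes, with heights in replicate 1 between 2.01 and 7.65. The other 2 were a site within Ltb, chr17:35195761-35195960, with 2.04 and 1.25, and an intergenic one 4.58 kb downstream of the nearest start with 0.749 and 1.25.

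The sequences of sites named above, at members other than Csf1r, are shown for comparison of their letters: the strongest shared site by mean height of each domain that was not at another start and free of untranslated exons, and in addition the Spi1 intron, the nearest upstream Cx3cr1 site and the Tmem119 upstream site, which were added after their values were seen. All are given 5′ to 3′ on the strand of the member gene, from GRCm38.p6, at the coordinates given above. Capitals mark any match to the letters searched: CAGGGGGCG and the wider CCANNAGNG for the insulator protein CTCF, CTANNNNTA for MEF2 and GGGCGGGG for SP, on both strands, with overlapping matches drawn as 1 run.
Spi1 intron 2: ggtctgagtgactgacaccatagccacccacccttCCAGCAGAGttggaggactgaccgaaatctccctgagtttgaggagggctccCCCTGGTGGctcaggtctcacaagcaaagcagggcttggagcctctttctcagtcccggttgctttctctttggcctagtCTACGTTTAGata
Spi1 exon 5: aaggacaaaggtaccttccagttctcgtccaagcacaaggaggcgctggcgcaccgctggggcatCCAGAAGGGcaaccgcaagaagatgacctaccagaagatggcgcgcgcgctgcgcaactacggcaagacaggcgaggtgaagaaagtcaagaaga
Irf8 downstream: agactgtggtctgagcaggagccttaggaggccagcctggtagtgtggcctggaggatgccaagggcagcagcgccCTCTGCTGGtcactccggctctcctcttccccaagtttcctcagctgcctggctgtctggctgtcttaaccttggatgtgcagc
Cx3cr1 long intron: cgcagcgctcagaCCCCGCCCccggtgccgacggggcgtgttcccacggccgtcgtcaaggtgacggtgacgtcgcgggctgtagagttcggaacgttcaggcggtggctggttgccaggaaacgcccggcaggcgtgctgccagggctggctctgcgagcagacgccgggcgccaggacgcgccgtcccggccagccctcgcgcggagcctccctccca
Cx3cr1 upstream: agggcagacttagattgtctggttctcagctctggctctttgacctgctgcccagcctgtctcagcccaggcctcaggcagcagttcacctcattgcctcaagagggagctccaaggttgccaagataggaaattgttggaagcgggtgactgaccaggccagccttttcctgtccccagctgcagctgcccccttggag
P2ry12 intron 1: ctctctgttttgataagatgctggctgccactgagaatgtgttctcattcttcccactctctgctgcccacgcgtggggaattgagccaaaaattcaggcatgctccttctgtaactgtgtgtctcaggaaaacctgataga
C1qa downstream: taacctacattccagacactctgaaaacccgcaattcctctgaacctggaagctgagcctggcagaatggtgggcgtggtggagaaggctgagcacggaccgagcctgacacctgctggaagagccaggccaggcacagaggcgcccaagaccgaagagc
Tmem119 upstream: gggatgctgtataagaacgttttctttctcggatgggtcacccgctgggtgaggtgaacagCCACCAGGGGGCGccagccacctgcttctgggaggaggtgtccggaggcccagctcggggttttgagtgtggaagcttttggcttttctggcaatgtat
Tmem119 within Coro1c: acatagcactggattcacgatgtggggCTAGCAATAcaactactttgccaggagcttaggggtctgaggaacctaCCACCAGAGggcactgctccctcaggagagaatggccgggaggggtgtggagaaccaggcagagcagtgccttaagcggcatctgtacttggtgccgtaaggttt
Aif1 within Ltb: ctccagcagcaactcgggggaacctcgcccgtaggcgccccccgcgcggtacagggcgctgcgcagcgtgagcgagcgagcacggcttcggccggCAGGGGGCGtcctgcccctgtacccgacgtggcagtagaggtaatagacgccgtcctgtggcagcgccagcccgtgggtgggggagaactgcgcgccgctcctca
CTCF letters, the narrow or the wider ones, were in 6 of these 10 stretches. In windows of 200 bp, the wider ones were in 34.4% of the 32 shared sites not at another gene's promoter. All shared sites away from starts had them in 23.3%, and those at least as high as the median of the 32 in 34.4%. Some stretches were added after their values were seen, and the wider letters after the sequences were read, so the count of 6 is no measure of enrichment. A CTCF match lay under a footprint in both replicates at the Spi1 intron, the Irf8 downstream site, both Tmem119 sites and the Ltb site. No match to any of the letters searched was found in the Cx3cr1 upstream, P2ry12 or C1qa sites.

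Over the 32 shared sites that were not at another gene's promoter, each taken as a 200 bp window, 3 held CAGGGGGCG (9.38%), against 1.92% of all 33425 shared sites away from starts and 4.74% of those at least as high as the median of the 32. The wider letters CCANNAGNG were added after the sequences had been read and were in 11 of 32 (34.4%), against 23.3% of all such sites and 34.4% of those at least as high as the median of the 32. The lower of the 32 sites fall below that height limit, so the last share is not one of sites matched in height. The letters searched for PU.1 and IRF, factors central to microglia, were not found in these windows. GAGGAAGT for PU.1, GGAANNGAA for PU.1 with IRF and GAAANNGAA for IRF were in 0 of 32, against 1.24%, 5.43% and 4.96% of all sites away from starts. MEF2 letters were in 4 (12.5%), against 12%, the AP-1 letters TGANTCA in 2 (6.25%), against 7.32%, the CEBP letters TTGCNNAA in 1 (3.12%), against 8.76%, and the RUNX letters TGTGGTT in 1 (3.12%), against 3.64%. SP letters were in 2 (6.25%), of which 1 was the Irf8 promoter, against 3.25% of sites away from starts, 5.22% of those at least as high as the median of the 32, and 24.9% of sites at starts. The ETS letters CCGGAAGT were in 1 (3.12%), against 0.458%, 0.828% and 5.43% of the same sets. The MAF letters TGCTGAC and NRF1 letters GCGCATGCG were in 0, against 4.5% and 0.461% of sites away from starts. In 32 windows a share of a few percent amounts to 1 or 2 windows, and a lack of match says only that these letters were not there.

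In the promoters themselves, 500 bp each side of the outermost start, the PU.1 letters were in 0 of 9 members, against 6.9% of all promoters, and the PU.1 with IRF letters in 0, against 24.1%. The IRF letters were in 3 (Csf1r, Sall1 and Aif1), against 25.1%, and the AP-1 letters in 4 (Csf1r, Spi1, Tmem119 and P2ry12), against 18.6%. MEF2 letters were in 2 (Spi1 and P2ry12), against 50.5%, and CEBP letters in 1 (P2ry12), against 29.6%. RUNX letters were in 2 (Aif1 and P2ry12), against 14.4%, and MAF letters in 2 (Sall1 and C1qa), against 12.6%. The ETS letters were in 0, against 7.19%, the narrow CTCF letters in 0, against 4.06%, the wider ones in 4, against 46.4%, and the NRF1 letters in 0, against 3.34%.

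The replicates listed the member domains in much the same relation as the rest of the genome. Replicate 2 had 55 peaks in the 9 domains, of which 48 overlapped a replicate 1 peak (87.3%, exact 95% binomial interval 75.5 to 94.7), against 81.8% over all peaks. Replicate 1 had 127, of which 50 overlapped a replicate 2 peak (39.4%, interval 30.8 to 48.4), against 38.0%. Both intervals hold the value over all peaks, and they cover counting error only. Peaks in 1 replicate alone numbered 77 in replicate 1, with 37 in its shorter list, and 7 in replicate 2, with 2 in its shorter list. A run of very low peaks upstream of P2ry12, described at the end, makes up 19 of the 77 and 13 of the 37.

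Most shared sites in the member domains, like most shared sites of the genome, were lower in replicate 2 than in replicate 1. On a log2 scale, the height in replicate 2 over that in replicate 1 had a median of -0.73 over the 49 sites and -0.74 over the 32 that were not at another promoter, against -0.48 over all 50780 shared sites. The 95% interval of the median over the 49 sites, from their ranks, was -0.94 to -0.47 and held the value over all sites, close to its upper end. It takes the sites as independent, although all were read in the same 2 replicates and several share a domain. It is therefore no test of the members against the genome. Over the 12 sites in a member's own gene or promoter, 4 of them in an intron of the long Cx3cr1 transcript, the median was -1.01. A median without those 4 was not computed. Of these 12, 10 (83.3%) were higher in replicate 1, against 71.3% of all shared sites. The 17 sites at neighbouring promoters, which serve other genes, had -0.73. Sites away from other starts in the domains of oligodendrocyte genes had a median of -0.55, of astrocyte genes -0.46 and of neuron genes -0.24. The 32 sites had median heights of 2.11 in replicate 1 and 1.17 in replicate 2, against 1.24 and 0.893 over all sites away from starts. The sets thus differ in height, and their ratios were not compared at like height. No source used here states how the deposited heights were scaled, and the part of cell composition or depth in these ratios was not tested.

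**Figure D5:**
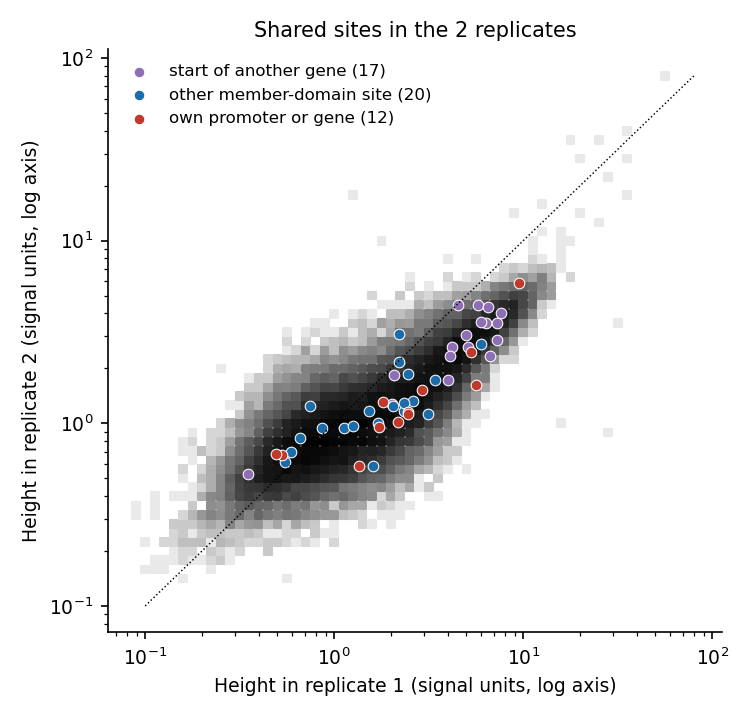
Height of every shared site in replicate 1 and replicate 2 on log axes in the authors' signal units; grey squares are all shared sites (darker for more sites), coloured points the 49 sites in domains of the microglia marker genes, and the dotted line marks equal height. Of the 49 points 40 (81.6%) lie below the line, against 71.3% of all shared sites, and 10 of the 12 own-gene sites are among the 40. The coloured points stay inside the cloud of all sites.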

How the data were processed

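Peaks, footprints and FDR intervals were used as the authors deposited them for each replicate on assembly mm10, per the labels; no source used here names the aligner, the callers or their thresholds. Peak height was the deposited signal value in column 7. Heights under 500 steps, the ones checked, were whole multiples of 1 step within 0.02 steps, with a step of 0.00535 in replicate 1 and 0.0108 in replicate 2, and no source used here gives the sequencing depth. The FDR intervals the authors deposited were taken as q-values. Within a peak the lowest of them reached at most 0.0499 in the longer lists, and 0.00123 and 0.000995 in the shorter lists of replicates 1 and 2. The deposited footprints carry the constant 0.01 and served as positions. Reads of both parental genomes share 1 assembly, so heights pool the alleles.

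Shared sites were intersections of overlapping peaks of both replicates, with the highest height of each replicate. Starts, genes and exons came from GENCODE M21, and sequences and motif matches from the RefSeq genome GRCm38.p6; 5 members (Cx3cr1, Irf8, Sall1, Aif1 and P2ry12) matched the RefSeq promoter table. Intervals were handled with Python 3.11.15 and numpy 2.4.6, binomial intervals with scipy 1.17.1, and the intersection code was tested on simulated intervals. All 9 members are reported, with the strongest 3 shared sites of each domain away from other starts and all sites inside a member; of the lists for microglia, the 3 highest genes and, where at most 5, those without a shared peak are given, and other cell types by counts; 1 gene that this rule takes is not reported here. Members and lists were chosen with earlier results of these data known. No test between groups was possible with 1 group.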

Additional observations from a re-analysis of the deposited data

How the results depend on the processing

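Of 44 values recomputed under other settings, 34 kept their size within the limits set for each. For the median density the limit was 4.35 sites per 100 kb, the standard deviation between the values of each replicate alone. It was larger than the main value of 3.32, so no fall in density could exceed it. The 34 include 8 of 9 density values, which therefore do not show whether the density is stable. The count of members with a shared promoter peak was 2 with the shorter lists, lists of equal length, reciprocal overlap of 50%, a window of 2000 bp or the outermost start, and 1 with a window of 200 bp, where the inner Sall1 peak falls outside by construction. Taking 1 replicate alone gave 2 to 4 members, 54 to 126 sites and 4.15 to 10.3 sites per 100 kb, the upper values from replicate 1, which has more peaks. The 49 sites became 20 with flanks of 10 kb, 92 with flanks of 100 kb and 32 without sites at other starts. Of replicate 2 peaks, 69.1% were found in replicate 1 with 50% reciprocal overlap and between 76.4% and 94.3% under the other settings. The median log2 height ratio lay between -0.72 and -0.89. Of 4 promoter footprints in each replicate, 1 overlapped a footprint of the other. The same share over all footprints was not computed, so this count cannot be read as particular to these promoters. Leaving out the long Cx3cr1 transcript, an alternative chosen after seeing the data, gave 45 sites and 86.3%. No paired analysis was possible because there is 1 group of samples. Unknown depth, 2 samples and whole tissue limit what a missing peak can show.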

Other observations

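Upstream of P2ry12, replicate 1 listed a run of very low peaks that no other member domain had. Of its 28 replicate 1 peaks in that domain, 19 had heights under 0.25, between 0.0642 and 0.23, and lay 4.37 to 42.1 kb upstream of the nearest P2ry12 start inside Med12l. Of these, 13 were in the shorter, stricter list, and replicate 2 had none. Over the whole of replicate 1, 10275 of 132685 peaks in the longer list (7.74%) were under 0.25. In its shorter list these were 5516 of 78444 (7.03%), so such low peaks were common there too. In the longer list of replicate 2 the share was 1.27%. The other 8 member domains had 0 such peaks in replicate 1. In place of 28, the P2ry12 domain has 9 replicate 1 peaks at or above 0.25.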
